A study of Mus musculus with 8 samples.

Results

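The genes described here are 10 genes of renal phosphate transport, klotho and vitamin D, taken by name from the 15948 genes listed for mouse kidney. All 10 were listed: the cotransporters Slc34a1, Slc34a3, Slc20a1 and Slc20a2, the scaffold Nherf1, Kl and Fgfr1 of the FGF23 receptor complex, and Cyp24a1, Cyp27b1 and Vdr of the vitamin D system. Messenger RNA was sequenced from 3 kidney samples labelled Arhgef11Sglt2 DOCA and 5 labelled Sglt2Cre DOCA. Arhgef11 encodes a guanine nucleotide exchange factor, and the study's title names systemic and proximal tubule specific knockouts and an interest in hypertension and kidney injury. Sglt2Cre names a Cre recombinase driven by the promoter of Sglt2, a glucose carrier made in the early part of the proximal tubule. DOCA, in hypertension research the mineralocorticoid deoxycorticosterone acetate, stands in both labels, so both groups share it, and no kidney without it was analysed here. The sources used here give neither the full alleles nor strain, sex, age, or the dose and duration of DOCA. The labels do not say that the libraries came from separate animals, so p-values measure the spread between these libraries, which may be technical.

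Phosphate is filtered at the glomerulus and taken back in the proximal tubule by sodium-coupled cotransporters of the brush border that are held in place by PDZ scaffold proteins. Parathyroid hormone and the bone hormone FGF23 lower this uptake, and FGF23 signals through FGF receptors joined to klotho, a membrane protein abundant in the distal convoluted tubule and also made in the proximal tubule. The proximal tubule makes active vitamin D with the enzyme encoded by Cyp27b1, the enzyme encoded by Cyp24a1 breaks it down, and the receptor encoded by Vdr carries its signal. FGF23 is known to lower Cyp27b1 and to raise Cyp24a1, and active vitamin D induces Cyp24a1.

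The 250 bases before the annotated start of 3 of these genes are shown because Slc34a1 and Kl were the members that fell, and Cyp27b1 was, with Cyp24a1, one of the most variable. They come from RefSeq in build GRCm38.p6, whereas the submitters' processing notes name GRCm39 for the expression values. Of the 10 genes 7 had an entry, and Fgfr1, Slc20a2 and Cyp24a1 had none. Capitals mark the GC box GGGCGG and the CCAAT box CCAAT, read on either strand.
Slc34a1, chr13:55399398-55399647 (+ strand): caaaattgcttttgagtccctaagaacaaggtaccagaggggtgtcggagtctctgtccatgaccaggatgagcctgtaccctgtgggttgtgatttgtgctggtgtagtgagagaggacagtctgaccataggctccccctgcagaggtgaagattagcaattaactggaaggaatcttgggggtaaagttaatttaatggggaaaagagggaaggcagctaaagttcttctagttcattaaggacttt
Kl, chr5:150952357-150952606 (+ strand): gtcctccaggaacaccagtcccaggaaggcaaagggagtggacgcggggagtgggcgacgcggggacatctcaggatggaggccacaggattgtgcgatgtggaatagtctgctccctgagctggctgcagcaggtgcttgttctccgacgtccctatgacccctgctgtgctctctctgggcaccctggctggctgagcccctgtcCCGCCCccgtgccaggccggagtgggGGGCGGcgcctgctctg
Cyp27b1, chr10:127047996-127048245 (+ strand): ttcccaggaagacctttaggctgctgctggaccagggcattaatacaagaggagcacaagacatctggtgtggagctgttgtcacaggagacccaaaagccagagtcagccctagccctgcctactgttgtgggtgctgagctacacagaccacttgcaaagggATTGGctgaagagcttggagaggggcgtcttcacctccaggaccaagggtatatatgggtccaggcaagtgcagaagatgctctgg
GC content was 46.4% before Slc34a1, 66.8% before Kl and 54.4% before Cyp27b1, against a median of 52.4% over the 32851 stretches of the table. The Kl stretch held 13 CpG pairs and 2 GC boxes, the first on the minus strand 43 bases before the start and the other on the plus strand 17 bases before it. The Slc34a1 stretch held 1 CpG pair and no marked motif, and the Cyp27b1 stretch held 1 CpG pair and 1 CCAAT box on the minus strand, 86 bases before the start. Of all stretches 32.7% held a GC box and 33.8% a CCAAT box, and the matches shown did not overlap one another. No match was found in these 3 stretches for TATAAA (12.4% of all stretches), for the palindromic HNF1 motif with at most 2 mismatches (1.24%) or for a vitamin D response element (0.0517%). That element was searched as a pair of 6-base motifs (each AGGTCA or AGTTCA or GGGTGA or GGTTCA) with 3 bases between them, and every motif was searched on both strands. The absence of a match says only that these letters are not in these windows.

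Expression values are normalized counts obtained by inverting the variance-stabilizing transformation of the deposited log2 table. Folds are ratios of group means of normalized counts. Log2 differences, standard errors and tests (limma, Benjamini-Hochberg adjustment over 15948 genes, threshold 0.05) are on the deposited scale, which compresses differences of low genes. In bulk kidney, fewer cells of a type and less RNA per cell cannot be told apart.

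Among the 10 genes, Kl, which encodes klotho, and Slc34a1, which encodes the main phosphate cotransporter of the brush border, fell in the Arhgef11Sglt2 libraries, by 1.82-fold and 1.62-fold. No member rose in limma, and 8 of the 10 did not pass in either direction. The 2 of 10 called lower stand beside 1.59% of all genes called lower, and the 0 called higher beside 0.627%. At an unadjusted p under 0.05, 3 members were lower and 2 higher, against 21.1% of all genes in either direction. With every library scaled to an equal total, the calls over all genes were 149 higher and 178 lower, against 100 higher and 254 lower as deposited. Every Arhgef11Sglt2 library lay below every Sglt2Cre library for Slc34a1, Kl and Nherf1, and above every one for Slc20a2. These 4 of 10 genes without overlap stand beside 14.3% of all genes (8.14% lower and 6.2% higher). The median log2 difference of the 10 members was 0.10, against -0.01 over all genes.

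**Figure D1:**
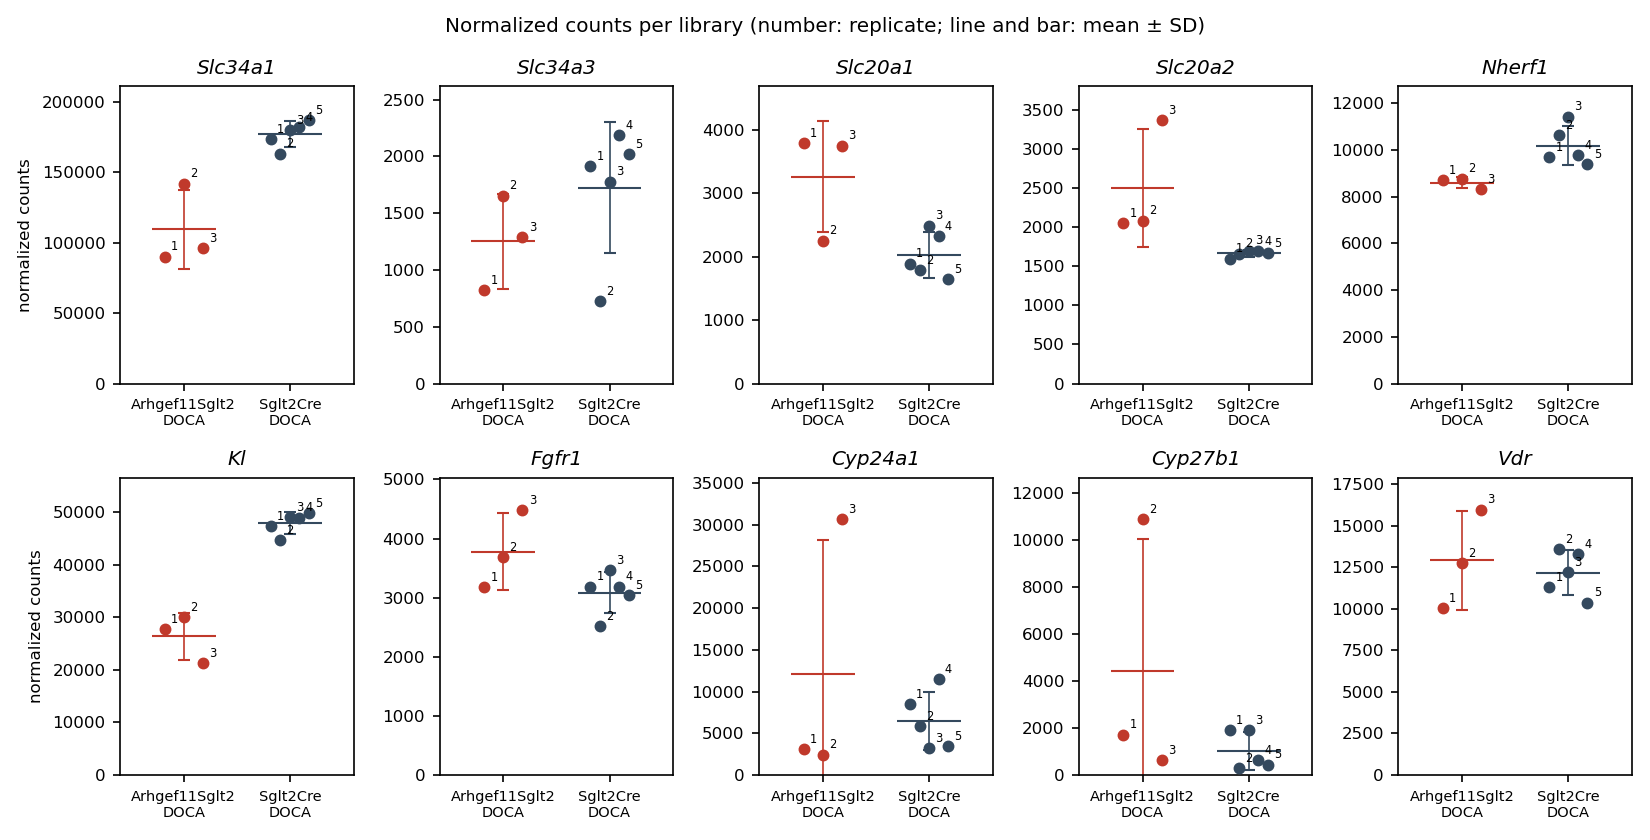
Normalized counts (y axes, linear, starting at 0) of the 10 genes in each library, with the 3 Arhgef11Sglt2 DOCA libraries left of the 5 Sglt2Cre DOCA libraries; points carry replicate numbers, lines are means and bars 1 SD, cut at 0 for Cyp24a1 and Cyp27b1. Kl and Slc34a1 separate the groups, while for Cyp24a1 and for Cyp27b1 a single Arhgef11Sglt2 library, at 30688.7 and at 10893.7, stands far above the rest.

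Normalized counts, which are already adjusted for library size, summed to 43000000 to 45700000 in the Arhgef11Sglt2 libraries and 45200000 to 46700000 in the Sglt2Cre libraries. Depths estimated from the spacing of low values were 51400000 to 57900000 reads in the Arhgef11Sglt2 libraries and 33100000 to 59500000 reads in the Sglt2Cre libraries. These depths are rough, since the spacing fitted only 30.4% to 54.2% of low values per library. Arhgef11 had 2935, 3919 and 3905 normalized counts in the Arhgef11Sglt2 libraries, against 3479 to 3928 in the Sglt2Cre libraries. Only replicate 1 lay below the Sglt2Cre range, and the log2 difference of -0.04 (SE 0.09, limma adjusted p = 0.834) did not pass, so this gene does not check the labels and directions refer to libraries as labelled. Markers of the kidney's segments were abundant in every library, with 7 thick ascending limb markers summing to 250846 to 320624 normalized counts in the Arhgef11Sglt2 libraries and 328001 to 376719 in the Sglt2Cre libraries. Adipose markers summed to 92.6 to 384 in the Arhgef11Sglt2 libraries and 3.21 to 1098 in the Sglt2Cre libraries, and by mean log2 value they were highest in Sglt2Cre replicate 2.

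Slc34a1 (ENSMUSG00000021490) carries most of the phosphate taken back by the rodent proximal tubule. It had 90180.1, 142040.4 and 96154.0 normalized counts in Arhgef11Sglt2 replicates 1, 2 and 3, against 173529, 163372, 180204, 182024 and 186898 in Sglt2Cre replicates 1 to 5. All Arhgef11Sglt2 libraries were low, replicate 2 least so, and the Sglt2Cre libraries lay close together. The mean was 109458 ± 28375 in the Arhgef11Sglt2 libraries (SD, n = 3) and 177205 ± 9097 in the Sglt2Cre libraries (SD, n = 5), a log2 difference of -0.72 (SE 0.16, 95% interval -1.07 to -0.37, limma adjusted p = 0.0491). This p lies just under the threshold. The call was lost when any 1 library other than Arhgef11Sglt2 replicate 2 was left out, with limma adjusted p values of 0.052 to 0.196 (the highest without Arhgef11Sglt2 replicate 3), although the log2 difference stayed between -0.92 and -0.60. The library names carry numbers in a lower and a higher range. Among libraries of the lower range (Arhgef11Sglt2 replicates 1 and 2, Sglt2Cre replicates 1 to 3) the log2 difference was -0.60 (limma adjusted p = 0.484). The higher range holds 1 Arhgef11Sglt2 library, replicate 3, which lay below Sglt2Cre replicates 4 and 5.

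Slc34a3 (ENSMUSG00000006469), the other brush border cotransporter of the Slc34 family in the proximal tubule, had 819.9, 1655 and 1287 normalized counts in the Arhgef11Sglt2 libraries, against 1916, 725.3, 1779, 2186 and 2018 in the Sglt2Cre libraries. All 3 Arhgef11Sglt2 libraries lay below 4 of the Sglt2Cre libraries, and Sglt2Cre replicate 2 lay below every other library, so the groups overlapped. The difference did not pass (log2 difference -0.32, SE 0.26, 95% interval -0.89 to 0.25, limma adjusted p = 0.502). Without Sglt2Cre replicate 2 it was -0.53 (limma adjusted p = 0.118), and without Arhgef11Sglt2 replicate 1 it was -0.13 (limma adjusted p = 0.796).

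The ratio of Slc34a1 to Slc34a3 normalized counts was 110, 85.8 and 74.7 in the Arhgef11Sglt2 libraries, against 90.6, 225, 101, 83.3 and 92.6 in the Sglt2Cre libraries. Apart from the 225 of Sglt2Cre replicate 2, the libraries of both groups covered similar ratios.

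Slc20a1 and Slc20a2 encode the phosphate cotransporters PiT-1 and PiT-2, which most cell types make. Slc20a1 (ENSMUSG00000027397) had 3789.9, 2253 and 3755 normalized counts in the Arhgef11Sglt2 libraries, against 1894, 1792, 2491, 2329 and 1645 in the Sglt2Cre libraries. Replicates 1 and 3 of the Arhgef11Sglt2 group lay above all Sglt2Cre libraries, and replicate 2 lay among them. The mean was 3266 ± 877 in the Arhgef11Sglt2 libraries (SD, n = 3) and 2030.2 ± 362 in the Sglt2Cre libraries (SD, n = 5), 1.61-fold higher, with a log2 difference of 0.55 (SE 0.16, 95% interval 0.19 to 0.92) that did not pass (limma adjusted p = 0.101). Without Arhgef11Sglt2 replicate 2 the log2 difference was 0.77 and passed (limma adjusted p = 0.0238), whereas it was 0.45 without replicate 1 (limma adjusted p = 0.141) and also without replicate 3 (0.344).

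Slc20a2 (ENSMUSG00000037656) had 2052, 2081 and 3368 normalized counts in the Arhgef11Sglt2 libraries, against 1595, 1659, 1699.6, 1688 and 1667 in the Sglt2Cre libraries. The Sglt2Cre libraries lay in a narrow band, every Arhgef11Sglt2 library lay above it, and replicate 3 lay far above. The mean was 2500.3 ± 751 in the Arhgef11Sglt2 libraries (SD, n = 3) and 1662 ± 40.5 in the Sglt2Cre libraries (SD, n = 5), 1.5-fold higher (log2 difference 0.45, SE 0.12, 95% interval 0.17 to 0.72, limma adjusted p = 0.0922). The value rested in part on replicate 3, without which the log2 difference was 0.25 (1.24-fold, limma adjusted p = 0.140), while without replicate 1 it was 0.55 and passed (limma adjusted p = 0.0395).

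Levels of different genes were compared per length, as normalized counts per kilobase of 1 annotated principal transcript (GENCODE M21). Slc34a1 was the most abundant cotransporter on this scale, at 27481 ± 7124 in the Arhgef11Sglt2 libraries (SD, n = 3) and 44490.4 ± 2284 in the Sglt2Cre libraries (SD, n = 5). In the Arhgef11Sglt2 libraries Slc20a1 came next at 985 ± 265, then Slc20a2 at 701 ± 211 and Slc34a3 at 574 ± 192, each overlapping its neighbour. In the Sglt2Cre libraries the order was Slc34a3 at 790.1 ± 265, Slc20a1 at 612 ± 109 and Slc20a2 at 466 ± 11.4. There Slc34a3 (332 to 1001) overlapped Slc20a1 (496 to 751), whereas Slc20a2 (447 to 477) lay below every Slc20a1 value. These orders are descriptions and were not tested.

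Nherf1 (ENSMUSG00000020733, annotated as Slc9a3r1) encodes the PDZ scaffold that anchors the Slc34a1 protein in the brush border. It had 8718, 8782 and 8325 normalized counts in the Arhgef11Sglt2 libraries, against 9700.3, 10643, 11433, 9793 and 9384 in the Sglt2Cre libraries. No Arhgef11Sglt2 library reached the lowest Sglt2Cre library, and both groups were tight. The 1.18-fold lower mean did not pass (log2 difference -0.23, SE 0.08, 95% interval -0.40 to -0.05, limma adjusted p = 0.148).

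Kl (ENSMUSG00000058488) had the most negative log2 difference of the 10 genes. It had 27806, 30006.8 and 21340.4 normalized counts in the Arhgef11Sglt2 libraries, against 47337, 44698, 49053, 48974 and 49864 in the Sglt2Cre libraries. The groups lay far apart, the Sglt2Cre libraries close together, and Arhgef11Sglt2 replicate 3 was the lowest of all. The mean was 26384 ± 4505 in the Arhgef11Sglt2 libraries (SD, n = 3) and 47985 ± 2054 in the Sglt2Cre libraries (SD, n = 5), a log2 difference of -0.86 (SE 0.11, 95% interval -1.12 to -0.61, limma adjusted p = 0.0152). Leaving out 1 library at a time gave log2 differences of -0.96 to -0.72, and the call was lost only without Sglt2Cre replicate 4 (limma adjusted p = 0.0565). Among libraries of the lower number range the log2 difference was -0.69 (limma adjusted p = 0.268), and in the higher range the single Arhgef11Sglt2 library lay below both Sglt2Cre libraries.

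Fgfr1 (ENSMUSG00000031565), the receptor that binds FGF23 together with klotho, had 3176, 3681 and 4477 normalized counts in the Arhgef11Sglt2 libraries, against 3185, 2523, 3467, 3189 and 3043 in the Sglt2Cre libraries. Replicates 2 and 3 of the Arhgef11Sglt2 group were higher than all Sglt2Cre libraries, and replicate 1 lay among them. The 1.23-fold higher mean did not pass (log2 difference 0.25, SE 0.11, limma adjusted p = 0.239), and the log2 difference was 0.35 without Arhgef11Sglt2 replicate 1 and 0.14 without replicate 3.

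Within each library, Slc34a1 was next set against early proximal tubule markers and Kl against distal convoluted tubule markers. Kl is also made in the proximal tubule, and it was not set against markers of that segment. The log2 ratio of Slc34a1 to the mean of 9 early proximal tubule markers, among them Slc5a2, Slc4a4 and Gatm, was 2.22, 2.09 and 2.24 in the Arhgef11Sglt2 libraries, against 2.65, 2.55, 2.56, 2.59 and 2.77 in the Sglt2Cre libraries. Each group was tight, they did not overlap, and replicate 2, whose Slc34a1 level was the highest of the Arhgef11Sglt2 libraries, had the lowest ratio. The mean ratio was 2.18 ± 0.08 in the Arhgef11Sglt2 libraries (SD, n = 3) and 2.62 ± 0.09 in the Sglt2Cre libraries (SD, n = 5), a difference of -0.44. The markers themselves moved in the same libraries: their mean deposited value relative to the Sglt2Cre mean was -0.56, 0.21 and -0.49 in Arhgef11Sglt2 replicates 1 to 3, against -0.07 to 0.09 in the Sglt2Cre libraries. None of the 9 passed in limma, and 4 were lower at an unadjusted p under 0.05, against 21.1% of all genes in either direction. The 9 summed to 307949 to 443463 normalized counts in the Arhgef11Sglt2 libraries and 363745 to 430136 in the Sglt2Cre libraries. Their part in the level of Slc34a1 was not tested.

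The log2 ratio of Kl to the mean of 7 distal convoluted tubule markers, among them Slc12a3 and Pvalb, was 2.12, 2.05 and 1.63 in the Arhgef11Sglt2 libraries, against 2.72, 2.46, 2.63, 2.78 and 2.93 in the Sglt2Cre libraries. The groups did not overlap, and the mean ratio was 1.93 ± 0.27 in the Arhgef11Sglt2 libraries (SD, n = 3) and 2.70 ± 0.17 in the Sglt2Cre libraries (SD, n = 5), a difference of -0.77. The markers' mean deposited value relative to the Sglt2Cre mean was -0.19, -0.01 and -0.07 in Arhgef11Sglt2 replicates 1 to 3, against -0.17 to 0.15 in the Sglt2Cre libraries, so this ratio largely restates the level of Kl. None of the 7 markers passed in limma, and 1 was lower at an unadjusted p under 0.05, against 21.1% of all genes in either direction. The 7 summed to 123478 to 129833 normalized counts in the Arhgef11Sglt2 libraries and 122573 to 165263 in the Sglt2Cre libraries. Both genes were known to be lower in these libraries when the ratios were chosen, so the ratios are descriptions, given with no p.

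**Figure D2:**
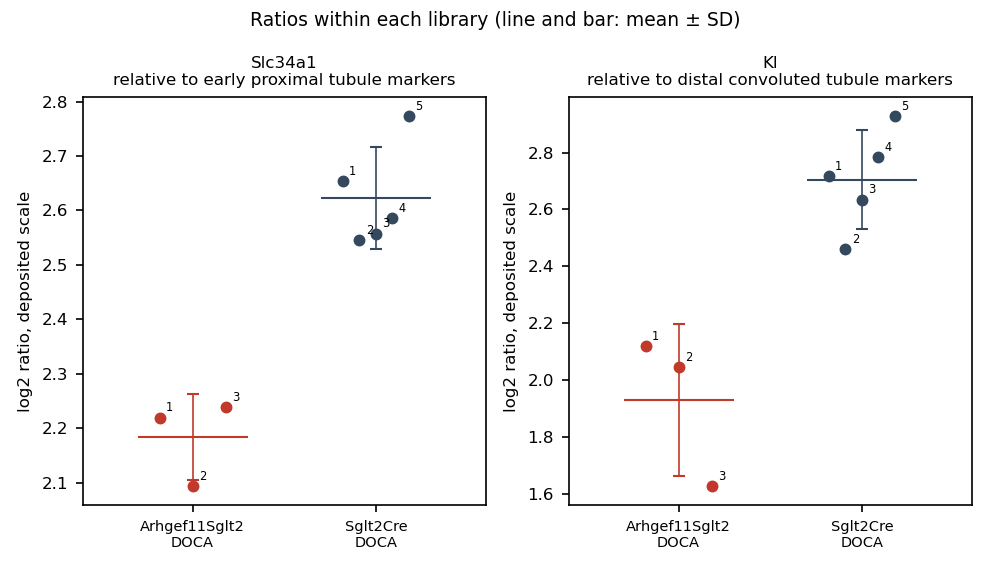
Log2 ratio per library (y axis, difference of deposited log2 values) of Slc34a1 to the mean of 9 early proximal tubule markers and of Kl to the mean of 7 distal convoluted tubule markers, Arhgef11Sglt2 DOCA left of Sglt2Cre DOCA, with replicate numbers, means and SD. The highest Arhgef11Sglt2 values, 2.24 and 2.12, lie below the lowest Sglt2Cre values, 2.55 and 2.46.

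Some genes of tubule injury, of the last proximal tubule segment and of the thick ascending limb differed in the same libraries. Of 6 injury markers 2 rose in limma, Lcn2 and Krt20, and 4 had an unadjusted p under 0.05. The 6 summed to 355446 to 843802 normalized counts in the Arhgef11Sglt2 libraries and 135788 to 520595 in the Sglt2Cre libraries. Nearly all of these sums was Spp1, at 343256 to 810293 in the Arhgef11Sglt2 libraries and 130534 to 512083 in the Sglt2Cre libraries. Spp1 overlapped between the groups and did not pass (limma adjusted p = 0.212). Lcn2, a secreted marker of tubule damage, had 7302, 4352 and 6932 normalized counts in the Arhgef11Sglt2 libraries, against 2007, 2553, 2196, 1872 and 1249 in the Sglt2Cre libraries. Within the Arhgef11Sglt2 group Lcn2 and Sox9 were lowest in replicate 2, and Havcr1, Krt20, Vcam1 and Spp1 in replicate 3. The mean deposited value of the 6 relative to the Sglt2Cre mean was 1.72, 0.65 and 0.47 in Arhgef11Sglt2 replicates 1 to 3. It was -0.46 to 0.26 in the Sglt2Cre libraries. Of 8 markers of the last proximal tubule segment 4 fell in limma, 7 were lower at an unadjusted p under 0.05, and the median log2 difference was -1.05. Of 7 thick ascending limb markers 1 fell in limma, 5 were lower at an unadjusted p under 0.05, 4 did not overlap between the groups, and the median log2 difference was -0.47. Over all genes 1.59% were called lower and 0.627% higher in limma, 8.14% were lower without overlap, and 21.1% had an unadjusted p under 0.05. No marker of endothelium (5), fibroblasts and pericytes (6) or macrophages (6) passed in limma, and 0 of them had an unadjusted p under 0.05. Of 8 collecting duct markers 0 passed in limma and 1 was lower at an unadjusted p under 0.05. Of 4 podocyte markers 0 passed and 0 had an unadjusted p under 0.05. The part of injury or of cell composition in the results for the 10 genes was not tested.

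The vitamin D enzymes varied between libraries of the same group more than nearly all other genes. Cyp24a1 (ENSMUSG00000038567), which inactivates vitamin D, had 3092, 2437 and 30688.7 normalized counts in the Arhgef11Sglt2 libraries, against 8474, 5846, 3208, 11458 and 3482 in the Sglt2Cre libraries. Replicate 3 of the Arhgef11Sglt2 group was the highest library and replicates 1 and 2 the lowest. The ratio of the highest to the lowest library was 12.6 in the Arhgef11Sglt2 group and 3.57 in the Sglt2Cre group. The difference did not pass (log2 difference 0.13, SE 0.71, 95% interval -1.45 to 1.71, limma adjusted p = 0.94), and without replicate 3 it was -0.95.

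Cyp27b1 (ENSMUSG00000006724), which makes active vitamin D, had 1712, 10893.7 and 636.9 normalized counts in the Arhgef11Sglt2 libraries, against 1899.9, 281.3, 1919, 629.0 and 447.1 in the Sglt2Cre libraries. Here replicate 2 of the Arhgef11Sglt2 group stood far above all others, and replicates 1 and 3 lay within the Sglt2Cre range. The highest library exceeded the lowest 17.1-fold in the Arhgef11Sglt2 group and 6.82-fold in the Sglt2Cre group. The difference did not pass (log2 difference 1.18, SE 0.68, 95% interval -0.33 to 2.70, limma adjusted p = 0.348), and it was 0.23 without replicate 2 and 1.91 without replicate 3. By residual standard deviation, only 1 of the 15948 genes exceeded Cyp24a1 and only 3 exceeded Cyp27b1, while 2003 exceeded Slc34a1 and 4450 exceeded Kl.

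The library with the most Cyp24a1 was not the library with the most Cyp27b1. The ratio of Cyp24a1 to Cyp27b1 normalized counts was 1.81, 0.224 and 48.2 in the Arhgef11Sglt2 libraries, against 4.46, 20.8, 1.67, 18.2 and 7.79 in the Sglt2Cre libraries. Arhgef11Sglt2 replicates 2 and 3 thus held the lowest and the highest ratio of all 8 libraries, and replicate 2 was the only library with more Cyp27b1 than Cyp24a1. On the deposited scale the mean log2 ratio was lower by 1.05 in the Arhgef11Sglt2 libraries, a value given without a test, and leaving out single libraries moved this difference between -2.86 and 0.51.

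**Figure D3:**
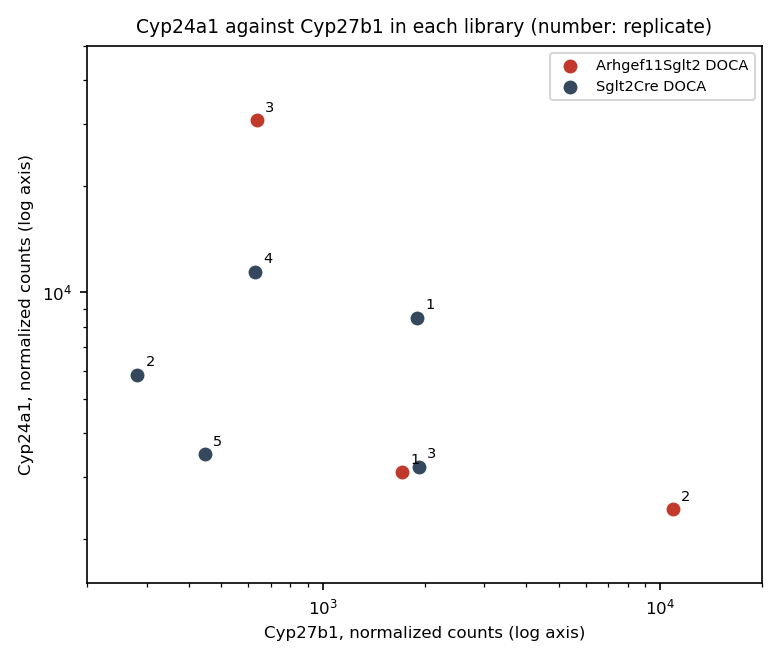
Cyp24a1 (y axis) against Cyp27b1 (x axis) in normalized counts, both on log axes, 1 point per library with its replicate number, Arhgef11Sglt2 DOCA and Sglt2Cre DOCA in different colours. Arhgef11Sglt2 replicate 3 lies at the upper left (30688.7 against 636.9) and replicate 2 at the lower right (2437 against 10893.7), outside the Sglt2Cre libraries.

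Vdr (ENSMUSG00000022479), the vitamin D receptor, had 10022, 12724 and 15969 normalized counts in the Arhgef11Sglt2 libraries, against 11323, 13607, 12202, 13304 and 10369.8 in the Sglt2Cre libraries. Replicates 1 and 3 of the Arhgef11Sglt2 group were the lowest and the highest library, so the groups overlapped fully. The difference did not pass (log2 difference 0.06, SE 0.14, 95% interval -0.25 to 0.38, limma adjusted p = 0.832). Per kilobase, Vdr stood at 2953 ± 681 in the Arhgef11Sglt2 libraries and 2783 ± 309 in the Sglt2Cre libraries, Cyp24a1 at 3391 ± 4530 and 1824 ± 982, and Cyp27b1 at 1855 ± 2368 and 435 ± 339 (SD, n = 3 and 5).

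Beyond the 10 members, 16 of 17 further genes of phosphate transport, brush border scaffolds and mineral handling were listed, Phex being the one that was not. Of these 1 rose and 0 fell in limma (1 higher and 5 lower at an unadjusted p under 0.05), 4 had positive and 12 negative differences, and their median log2 difference was -0.15. Over all genes 0.627% rose and 1.59% fell in limma, and 21.1% had an unadjusted p under 0.05 in either direction. The gene that rose was Slc34a2, the Slc34 cotransporter of lung and intestine, with 1539.1, 540.2 and 1113.1 normalized counts in the Arhgef11Sglt2 libraries, against 305.2, 239.0, 443.9, 369.2 and 382.0 in the Sglt2Cre libraries. Every Arhgef11Sglt2 library was higher, replicate 2 least so, and the mean was 3.06-fold higher (log2 difference 0.90, SE 0.19, limma adjusted p = 0.0467). On log2 of the normalized count plus 1, where low genes are not compressed, its log2 difference was 1.52. The call was lost without Arhgef11Sglt2 replicate 3 (limma adjusted p = 0.176), without each Sglt2Cre library in turn, and with array weights (0.0880).

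The scaffolds and the exporter of this list did not pass. Pdzk1, a PDZ scaffold that binds the Slc34 cotransporters, had 26107, 26071 and 13625 normalized counts in the Arhgef11Sglt2 libraries, all below the Sglt2Cre mean of 36221 ± 4139 (SD, n = 5), with a limma adjusted p of 0.0788. Shank2, another PDZ scaffold, averaged 2796 ± 389 in the Arhgef11Sglt2 libraries (n = 3) and 3894 ± 411 in the Sglt2Cre libraries (n = 5; SD, limma adjusted p = 0.0666). Fam20c, the kinase that phosphorylates FGF23, had a log2 difference of -0.37 (limma adjusted p = 0.0922), and Kidins220, a partner of the phosphate exporter XPR1, one of -0.30 (limma adjusted p = 0.101). For each of these 4 genes every Arhgef11Sglt2 library lay below every Sglt2Cre library. They were named for the smallest p in their list, so groups without overlap were likely among them. Over the whole list, 6 of 16 genes were lower and 2 higher without overlap, against 8.14% and 6.2% of all genes.

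Of 19 genes for the FGF23 and parathyroid hormone receptors, their signalling and klotho shedding, 18 were listed, Fgf23 not among them. In limma 0 passed in either direction (3 lower and 0 higher at an unadjusted p under 0.05), 8 differences were positive and 10 negative, and their median was -0.01. Over all genes 2.22% passed in limma and 21.1% had an unadjusted p under 0.05, in either direction. Pth1r, the parathyroid hormone receptor, averaged 12982 ± 816 normalized counts in the Arhgef11Sglt2 libraries (SD, n = 3) and 16120.0 ± 1152 in the Sglt2Cre libraries (SD, n = 5), without overlap (log2 difference -0.30, SE 0.08, limma adjusted p = 0.0908). Among the others with the smallest p were the proteases Adam17 (log2 difference -0.20, limma adjusted p = 0.208) and Bace1 (-0.12, 0.289), both known to cut klotho from the membrane, and Prkaca, a catalytic subunit of protein kinase A (-0.15, 0.220). Adam10, another protease of this list, named after its values were seen, went the other way. It was higher without overlap and did not pass (log2 difference 0.13, limma adjusted p = 0.338).

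All 20 genes of vitamin D uptake, metabolism, receptor partners and targets were listed. Of these 0 rose and 1 fell in limma (2 higher and 7 lower at an unadjusted p under 0.05), 8 differences were positive and 12 negative, and the median log2 difference was -0.06. The shares over all genes were 0.627% higher and 1.59% lower in limma, and 21.1% at an unadjusted p under 0.05 in either direction. Lrp2, which encodes megalin, the endocytic receptor that takes up vitamin D with its binding protein, was the gene that fell. It had 70440, 85850.0 and 53235 normalized counts in the Arhgef11Sglt2 libraries, against 100570.0, 116530.2, 116321, 119977 and 116372 in the Sglt2Cre libraries. All Arhgef11Sglt2 libraries were lower, replicate 3 most so, and the mean was 1.63-fold lower (log2 difference -0.73, SE 0.15, limma adjusted p = 0.0462). Without Arhgef11Sglt2 replicate 3 the limma adjusted p was 0.154, and the call was also lost without each Sglt2Cre library and with equal totals (0.0512).

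The remaining genes of that list did not pass. Slc8a1, the sodium-calcium exchanger of the distal tubule, averaged 12557 ± 3712 normalized counts in the Arhgef11Sglt2 libraries (SD, n = 3) and 22455 ± 4554 in the Sglt2Cre libraries (SD, n = 5), with no overlap (log2 difference -0.84, limma adjusted p = 0.0631). Casr, the calcium-sensing receptor, differed by -0.24 on the log2 scale (limma adjusted p = 0.136) and Amn, the partner of cubilin, by -0.27 (limma adjusted p = 0.153). Trpv6, a calcium channel induced by vitamin D, was 0.22 higher on that scale in the Arhgef11Sglt2 libraries (limma adjusted p = 0.156). The vitamin D targets Calb1, S100g and Trpv5, named after their values were seen, did not pass either, with log2 differences of -0.43, 0.02 and -0.09 (limma adjusted p = 0.195, 0.976 and 0.832).

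**Figure D4:**
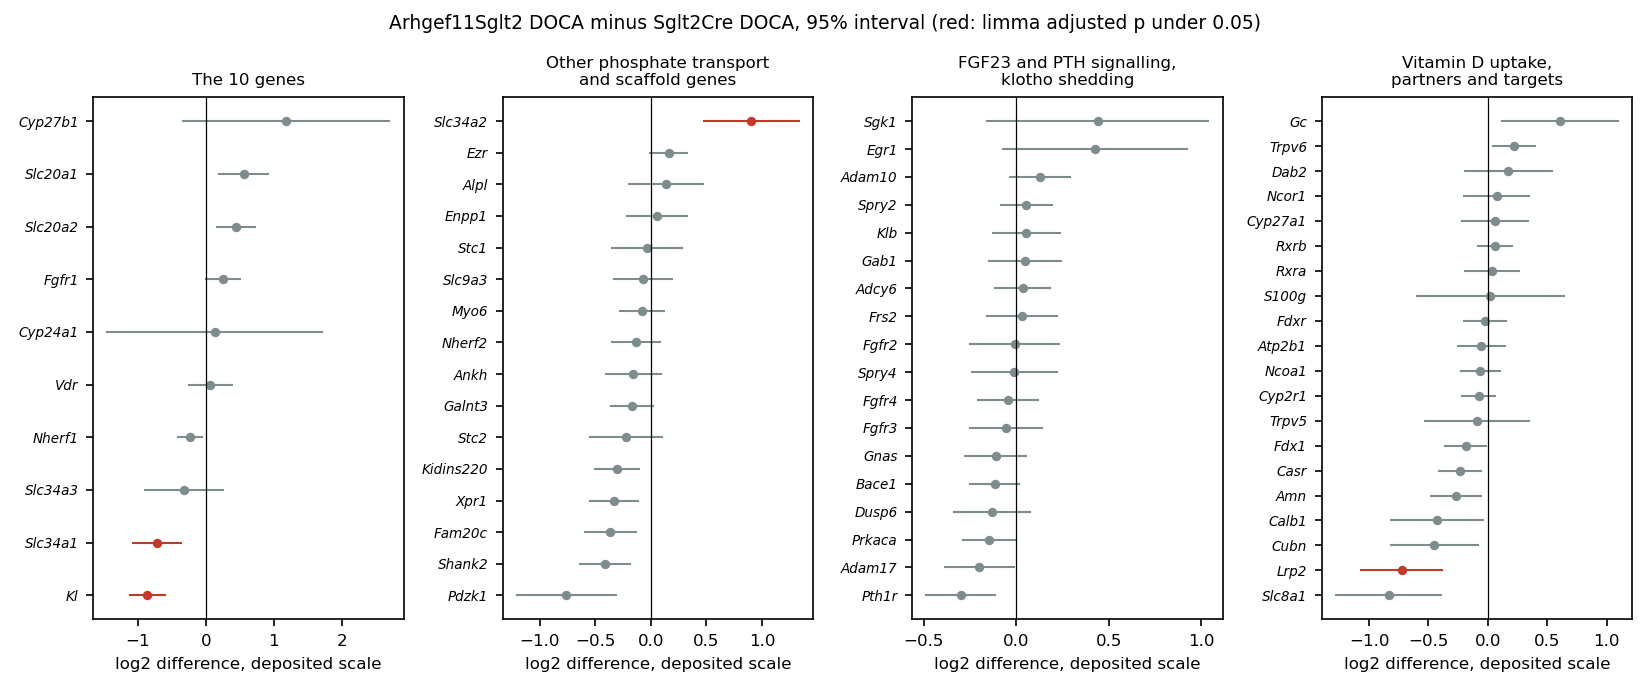
Log2 difference (x axes, Arhgef11Sglt2 DOCA minus Sglt2Cre DOCA, deposited scale; each panel has its own range) with its 95% interval from limma, for the 10 genes and for the 3 further lists, red where the limma adjusted p was under 0.05. Among the 10 genes Kl (-1.12 to -0.61) and Slc34a1 (-1.07 to -0.37) are red and Cyp24a1 and Cyp27b1 have the widest intervals; elsewhere only Slc34a2 and Lrp2 are red.

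The genes whose profiles over the 8 libraries were most like that of Slc34a1, by root mean square difference of deposited values relative to the Sglt2Cre mean, were Cmbl (0.067), Abat (0.075), Gys2 (0.105), Ankrd13c (0.118) and 4931406C07Rik (0.118). Abat encodes GABA transaminase and Gys2 the liver form of glycogen synthase. For Kl they were Cyp2j11 (0.105), Bdh1 (0.107), Mgat3 (0.108), Slc6a20b (0.114) and Acy1 (0.118). Bdh1 encodes a ketone body dehydrogenase and Acy1 an aminoacylase. None of the 10 members appeared among these neighbours.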

How the data were processed

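The authors deposited variance-stabilized log2 values of 15948 genes in 8 mouse kidney libraries. The unit was read from the values, which are not whole numbers and have a common floor of 8.1275 (279.7 before taking log2), the value of a zero count. Per the submitters' processing notes, the authors used Salmon 1.10.0, DESeq2 and GRCm39, with annotation and gene filter not given in the sources used here. Per the labels' protocols, the libraries were stranded and poly(A) selected (TruSeq) and were pooled for sequencing. Inverting the transformation gave normalized counts. Of low values (up to 5 steps), 30.4% to 54.2% per library lay within 0.02 steps of a whole number, so read counts could not be had and count models were not run.

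Each gene was fitted with limma 3.58.1 (R 4.3.3), group as the only term, variances following the mean, 6 residual degrees of freedom, and Benjamini-Hochberg adjustment over all genes at 0.05; the procedure was tested on simulated data. Ratios to markers are given without the exact permutation test planned for them, since both genes were known to be lower. Symbols came from a reference table and matched 15902 identifiers (99.71%). Promoter stretches came from RefSeq (GRCm38.p6), and the GC and CCAAT boxes were added after the sequences were seen. The 10 members, the gene lists and the markers were chosen with earlier results of these data known. Genes named were the members, Arhgef11 and Slc5a2, of each pathway list those past the threshold and up to 4 more with the smallest p, markers as needed, and the 5 profiles nearest to Slc34a1 and to Kl among genes with a mean of at least 50 normalized counts. Alternatives covered the filter, blocks, variance shrinkage, library weights, pseudocounts of 1 and 10, scaling, the call threshold and leaving out each library.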

Additional observations from a re-analysis of the deposited data

Results flagged for a closer look

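Of 13 groups of values of the 5 Sglt2Cre libraries examined for a library far from the rest, 1 stood out. The Arhgef11Sglt2 libraries were not examined in this way. Slc34a3 in Sglt2Cre replicate 2 had 725.3 normalized counts, and the gap to its nearest neighbour took up 0.794 of the range of the 5 Sglt2Cre libraries, above the critical value of 0.71. Chance flags about 1 group in 20. The same library had the lowest Cyp27b1 of all 8 libraries, 281.3 normalized counts. Its ratio of Slc34a1 to Slc34a3, 225, was the highest, but it has the flagged Slc34a3 value as denominator and so restates it.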

How the results depend on the processing

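Over 20 alternatives the sign of the log2 difference held for 8 of the 10 genes; it held in 15 for Cyp24a1 and in 18 for Vdr. Leaving out 1 library gave -0.92 to -0.60 for Slc34a1, -0.53 to -0.13 for Slc34a3, 0.45 to 0.77 for Slc20a1, 0.25 to 0.55 for Slc20a2, -0.25 to -0.19 for Nherf1, -0.96 to -0.72 for Kl, 0.14 to 0.35 for Fgfr1, -0.95 to 0.74 for Cyp24a1, 0.23 to 1.91 for Cyp27b1 and -0.10 to 0.23 for Vdr. It gave 24 to 1334 calls over all genes (4 to 578 higher, 20 to 756 lower), against 354 (100 higher, 254 lower); the lowest count was without Sglt2Cre replicate 4 and the highest without Arhgef11Sglt2 replicate 1. The lists of phosphate, FGF23 and vitamin D genes had 0 to 3, 0 to 2 and 0 to 3 calls. The log2 ratios moved between -0.47 and -0.39 (Slc34a1), -0.87 and -0.62 (Kl) and -2.86 and 0.51 (Cyp24a1 to Cyp27b1).

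Replicate numbers gave no sign of pairing the libraries: deviations of same-numbered libraries correlated at -0.18, -0.09 and -0.01. With only 3 such pairs, this check cannot exclude a pairing. With the replicate number as a block, 0 genes were called, higher or lower (2165 at an unadjusted p under 0.05 with numbers 1 to 3, 2166 with all 8 libraries), Slc34a1 was at -0.68 (limma adjusted p = 0.308 and 0.310) and Kl at -0.83 (0.196 and 0.198), and the lists had 0 calls. Among the libraries of the lower number range, a choice made for the gene tests after the data were seen, 0 genes were called, higher or lower (1591 unadjusted), Slc34a1 was at -0.60, Kl at -0.69, the lists had 0 calls, and the ratios were -0.43, -0.52 and -2.50. Array weights gave 874 calls (344 higher, 530 lower), Slc34a1 at -0.50 (limma adjusted p = 0.0650) and 0, 1 and 2 calls in the phosphate, FGF23 and vitamin D lists. The term for library number range gave Slc34a1 at -0.72 (0.0615) and 2 vitamin D calls, and equal totals gave 0 vitamin D calls. Slc34a1 also missed the threshold, at -0.72, with log2 of the normalized count plus 1 (0.0526) or plus 10 (0.0613) and with equal medians (0.0518). A threshold of 0.10 gave 1038 calls and 0.01 gave 4. Kl passed in 16 of the 20 alternatives and Slc34a1 in 5. The cause of these changes was not tested. The edgeR and DESeq2 alternatives were not run because the table holds no counts. The 3 libraries of 1 group and the compressed scale limit what can be called among low genes.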
